A study of Mus musculus with 6 samples.

Results

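10 genes that turn free fatty acids into acyl-CoA were followed in mouse liver: the long-chain acyl-CoA synthetases Acsl1, Acsl3, Acsl4, Acsl5 and Acsl6, the fatty acid transport proteins Slc27a1, Slc27a2, Slc27a4 and Slc27a5, and Acsm1. They were picked by gene symbol and are 10 of the 55536 genes in the deposited tables. The choice was made with fold changes of these same libraries in view, so every value below for the comparison of the groups is a description of these libraries and no independent evidence. All 6 libraries are of liver from male mice of the inbred strain C57BL/6, aged 6 weeks when dosing began. In 3 of them the mice had received polystyrene microplastics (PS-MP) by mouth at 0.4 mg per day, 2 times a week for 8 weeks, and in the other 3 the mice had received water on that schedule. No genotype, transgene or further agent is named for either group, and the labels do not tie each library to its own animal. The p-values therefore reflect library-to-library spread alone, part of which may be technical.

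A fatty acid cannot be burned, stored or built into a membrane until an acyl-CoA synthetase has joined it to coenzyme A at the cost of ATP. The ACSL enzymes do this for long chains on the outer mitochondrial membrane, the endoplasmic reticulum and other membranes. The SLC27A proteins, also called fatty acid transport proteins, carry the same kind of activity for long and very long chains and promote fatty acid uptake. In liver, ACSL1 is the major ACSL enzyme, its gene is a well known target of the fasting receptor PPARalpha, and SLC27A5 activates bile acids before they are joined to glycine or taurine.

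The libraries held 13082210 to 16948343 reads each, recovered from the deposited FPKM values (fragments per kilobase of exon, relative to the library's total). Hepatocyte markers were present in every library: 8 of 8 listed were tested and 0 passed, where 0.489% of all tested genes were called. Their summed level was 100000 to 107600 CPM (reads relative to the library's total, without length scaling) in water and 86370 to 102000 CPM in PS-MP. Transcripts of other tissues were uneven. The 8 forebrain neuron markers summed to 9.50 to 11.19 CPM in water and 18.07 to 188.7 CPM in PS-MP, the highest in replicate 3. The brown fat gene Ucp1 had reads in water replicates 1 and 3 and in PS-MP replicate 3 only (139, 15 and 68 reads). The 5 brown fat markers, 3 tested and 0 passing, summed to 334.5, 260.8 and 198.4 CPM in water replicates 1, 2 and 3 and to 174.3, 124.9 and 145.0 CPM in PS-MP replicates 1, 2 and 3, lower in all PS-MP libraries. Most of those reads were of Elovl3, a fatty acid elongase that liver also expresses (2842 to 4882 reads in water, 1986 to 2276 in PS-MP). Of 6 fat markers, Lep was at 0 reads in all libraries, and the list summed to 7.14 to 67.6 CPM in water and 6.96 to 32.3 CPM in PS-MP. In bulk tissue, fewer cells of a type and less RNA per cell cannot be told apart.

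The 10 genes spanned a wide range of levels. Slc27a2, which activates very long chains in peroxisomes and the endoplasmic reticulum, was the most abundant per exon length at a mean of 595 FPKM over the 6 libraries (550.8 to 647.0), rank 81 among the 13299 genes tested. Slc27a5 followed at 275 FPKM and Acsl1 at 226 FPKM, and the ranges of these neighbours overlapped (259.7 to 305.4 and 177.6 to 271.0 FPKM). Acsm1 had a mean of 93.4 FPKM, Acsl5 50.9, Acsl4 13.2, Slc27a4 7.498, Slc27a1 5.95, Acsl3 2.85 and Acsl6 0.067 FPKM. Apart from Slc27a5 with Acsl1 and Slc27a4 with Slc27a1, whose ranges overlapped, each gene of this order had all its 6 values above those of the next.

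The length used to scale the reads moved Acsl1 in this order. Its merged exons in GENCODE M21 add up to 10483 bases, while its longest principal coding transcript has 3897 bases. With reads scaled by the length of that principal transcript in place of the merged exons, Acsl1 stood at 712 in water, against 774 for Slc27a2 and 294 for Slc27a5. Acsl1 then stood above Slc27a5 in the mean over all libraries, and Slc27a1 stood above Slc27a4. The scaling is the same in all libraries, so it moves no fold change between the groups.

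**Figure D1:**
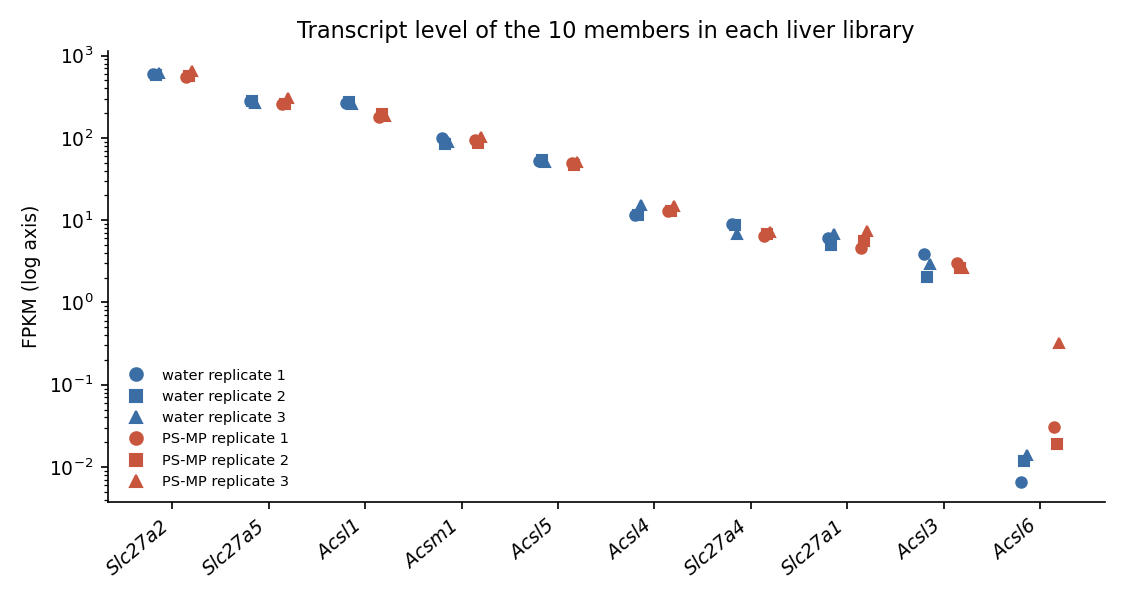
FPKM of the 10 genes in each of the 6 libraries on a log axis, ordered by the mean over all libraries; colour gives the group and symbol the replicate. Levels run from about 595 FPKM for Slc27a2 to 0.067 for Acsl6, and the water and PS-MP points stand clear of each other for Acsl1 (lower in PS-MP) and Acsl6 (higher in PS-MP, on 1 to 47 reads).

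Acsl1 was lower in the PS-MP livers. It is a gene of chromosome 8 (46471037 to 46536051, plus strand, GRCm38), and it stood at 265.4, 271.0 and 257.9 FPKM in water replicates 1, 2 and 3 and at 177.6, 197.5 and 185.1 FPKM in PS-MP replicates 1, 2 and 3. The groups did not overlap, and the highest PS-MP value lay below the lowest water value. The means were 265 ± 6.55 and 187 ± 10.04 FPKM (SD, n = 3 each), a difference of -29.5%. In the fit of all genes the log2 fold change was -0.50 (standard error 0.07, 95% interval -0.66 to -0.34, limma adjusted p = 0.0386), and these values rest on 24357 to 48146 reads per library.

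Acsl1 was the only member below the threshold, 1 of 9 tested, where 0.248% of all tested genes were called lower and 0.489% were called in either direction. It was also the only tested member whose groups did not overlap, as was so for 19.2% of all tested genes, with all PS-MP values under all water values for 8.12%. The size of the difference was stable, from -0.47 to -0.54 in log2 over 14 refits. The call was not: 9 of the 14 refits gave an adjusted p above 0.05. Leaving out any 1 library, water replicate 1, 2 or 3 or PS-MP replicate 1, 2 or 3, gave 0.154, 0.0962, 0.149, 0.0942, 0.077 and 0.0705, and no low-value rule gave 0.0998. Among the 3 libraries with no Ucp1 read (water replicate 2, PS-MP replicates 1 and 2) the log2 difference was -0.53 (adjusted p = 0.561, with a single water library assumed to vary like the others). An antisense gene, Gm45244, shares 1039 exon bases with Acsl1 and had 63 to 169 reads per library. The part of this overlap in the Acsl1 reads was not tested. The summed brown fat markers, nearly all Elovl3, were lower in PS-MP without overlap like Acsl1, and their part in the Acsl1 difference was not tested.

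The difference in Acsl1 can also be given as its place in the ACSL pool, which restates it on another scale. Acsl1 made up 79.5%, 79.9% and 78.9% of the summed FPKM of the 5 Acsl genes in water and 73.0%, 76.1% and 72.9% in PS-MP. Scaled by principal transcripts, the share was 90.0% to 90.5% in water and 86.5% to 88.4% in PS-MP. The ratio of Acsl1 to Acsl5 within a library, which does not depend on library scaling, was 4.99, 4.97 and 5.11 in water and 3.57, 4.24 and 3.65 in PS-MP. The ratio of Acsl1 to Slc27a2 was 0.416 to 0.466 in water and 0.286 to 0.347 in PS-MP. All these measures have Acsl1 as their numerator and are no separate evidence. The summed Acsl level was 333 ± 6.14 FPKM in water and 252 ± 8.35 FPKM in PS-MP (SD, n = 3 each), while the summed level of the 4 Slc27a genes was 892 ± 12.6 and 877 ± 78.5 FPKM, with overlapping groups.

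The Acsl1 gene is read from alternative starts, and the deposited value sums over them. RefSeq's promoter table (GRCm38.p6) lists windows for 9 of the 10 genes, each covering 250 bases before and 50 after a start; Slc27a5 is the member it leaves unmatched. Acsl1 has 2 windows, whose positions lie 19929 bases apart. They are shown because Acsl1 is the member that differed, with the window of Acsl5, the next ACSL gene by level, which did not pass. Capitals mark matches on either strand to GGGCGG (the GC box), CCAAT (the CCAAT box), AGGTCA (the half-site of many nuclear receptors, PPARalpha included) or CACGTG (the E-box).
Acsl1 upstream start, chr8:46470787-46471086, plus strand: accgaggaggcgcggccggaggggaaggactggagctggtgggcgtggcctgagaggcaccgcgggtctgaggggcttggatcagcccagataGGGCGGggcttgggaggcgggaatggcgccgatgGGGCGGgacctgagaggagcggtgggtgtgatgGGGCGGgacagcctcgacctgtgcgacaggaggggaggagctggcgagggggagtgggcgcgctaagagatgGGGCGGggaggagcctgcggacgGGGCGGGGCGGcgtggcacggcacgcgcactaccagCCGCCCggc
Acsl1 downstream start, chr8:46490716-46491015, plus strand: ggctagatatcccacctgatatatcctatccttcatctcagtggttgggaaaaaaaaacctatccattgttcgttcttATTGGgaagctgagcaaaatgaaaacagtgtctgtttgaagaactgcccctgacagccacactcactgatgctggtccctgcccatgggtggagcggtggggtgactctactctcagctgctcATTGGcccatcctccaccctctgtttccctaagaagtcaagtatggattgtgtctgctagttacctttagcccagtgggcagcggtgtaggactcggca
Acsl5, chr19:55253119-55253418, plus strand: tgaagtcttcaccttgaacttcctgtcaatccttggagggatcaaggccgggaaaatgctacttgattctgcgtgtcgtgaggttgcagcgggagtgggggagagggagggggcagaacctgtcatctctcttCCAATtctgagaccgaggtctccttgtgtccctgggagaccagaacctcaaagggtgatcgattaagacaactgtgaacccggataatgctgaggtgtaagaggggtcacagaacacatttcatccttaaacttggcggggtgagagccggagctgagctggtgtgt
The upstream Acsl1 window held 7 GC boxes (one pair of neighbours shares a base) and 30 CpG dinucleotides, with a G and C content of 74%. The downstream window held 0 GC boxes, 2 CCAAT boxes and 4 CpG dinucleotides, with a G and C content of 50%. The Acsl5 window had 1 CCAAT box. No window of these 3 held AGGTCA or CACGTG in these exact letters. Over the 32851 windows of the table, 35.7% held a GC box, 37.4% a CCAAT box, 16.3% the half-site and 7.15% the E-box. A match is a description of letters and not a bound site.

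**Figure D2:**
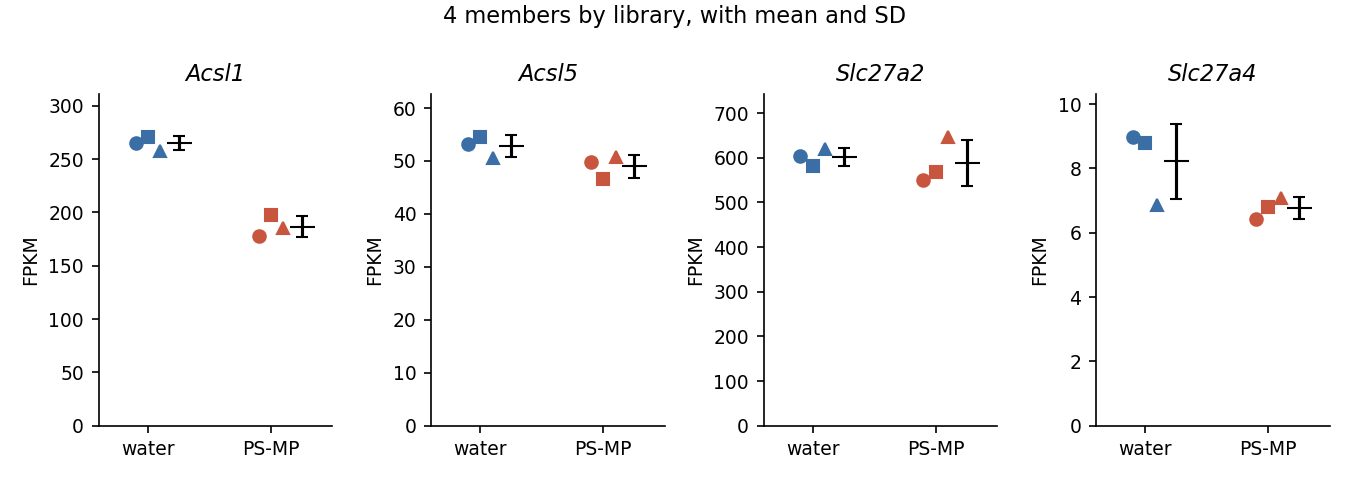
FPKM by library for Acsl1, Acsl5, Slc27a2 and Slc27a4, each on an axis from 0; points are single libraries (circle, square and triangle for replicates 1, 2 and 3), and the bar beside them is the mean with its SD. Acsl1 falls from 258 to 271 FPKM in water to 178 to 197 FPKM in PS-MP without overlap, and the groups overlap in the other 3 genes.

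Acsl5, an ACSL enzyme of mitochondria and endoplasmic reticulum that is linked to triglyceride synthesis, was measured precisely and did not pass. It had 53.2, 54.6 and 50.5 FPKM in water and 49.7, 46.6 and 50.7 FPKM in PS-MP. Only PS-MP replicate 3 reached into the water range. The log2 fold change was -0.11 with a 95% interval of -0.25 to 0.04 (limma adjusted p = 0.536), an interval that leaves out a change as large as the estimate for Acsl1; the difference between the 2 genes was not itself tested. Acsl5 shares 404 exon bases with Zdhhc6 on the other strand, which had 1036 to 1438 reads.

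Acsl4, which prefers arachidonic acid and is known for making cells sensitive to ferroptosis, had 11.5, 11.5 and 15.5 FPKM in water and 12.8, 13.0 and 14.97 FPKM in PS-MP. Both groups hold low and high libraries, and the log2 fold change was 0.09 (95% interval -0.20 to 0.38, adjusted p = 0.809). Leaving out 1 library moved it between 0.02 (without water replicate 1 or 2 or PS-MP replicate 3) and 0.23 (without water replicate 3). Acsl3, an ACSL enzyme of the endoplasmic reticulum and of nascent lipid droplets, had 3.87, 2.06 and 2.96 FPKM in water and 3.02, 2.59 and 2.63 FPKM in PS-MP. All 3 PS-MP values lay within the water range, and the log2 fold change was -0.06 (95% interval -0.49 to 0.37, adjusted p = 0.916). With 152 to 256 reads per library, a change in Acsl3 of the size seen in Acsl1 would lie just outside its interval. Acsl3 shares 244 exon bases with Utp14b on the same strand, so some of its reads could belong to that gene.

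Acsl6, an enzyme of brain, testis and red cell precursors that favours docosahexaenoic acid in neurons, was nearly silent. Water replicates 1, 2 and 3 held 1, 2 and 2 of its reads, and PS-MP replicates 1, 2 and 3 held 4, 3 and 47. It fell under the low-value rule and entered no test. In CPM this was 0.066, 0.118 and 0.138 in water and 0.306, 0.188 and 3.15 in PS-MP. The exact 95% Poisson interval, which covers counting error only, was 2.32 to 4.19 CPM in PS-MP replicate 3 and reached at most 0.498 CPM in water. For PS-MP replicates 1 and 2 the intervals (0.083 to 0.783 and 0.039 to 0.550 CPM) overlapped those of water. PS-MP replicate 3 is also the library with the most forebrain transcripts: Snap25, of nerve terminals, had 1, 2 and 0 reads in water and 61, 19 and 860 in PS-MP. Of the 7 erythroid markers, 7 were found, 5 were tested and 0 passed, where 0.489% of all tested genes were called. They summed to 113.5 to 127.4 CPM in water and 99.8, 116.0 and 178.4 CPM in PS-MP replicates 2, 1 and 3. Of the 4 testis germ cell markers, Acsbg2, Prm1 and Prm2 were at 0 reads in all libraries. The 4 summed to 0.134 CPM in PS-MP replicate 3 and to 0 CPM in every other library. The part of brain, red cell or testis transcripts in the Acsl6 reads was not tested.

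**Figure D3:**
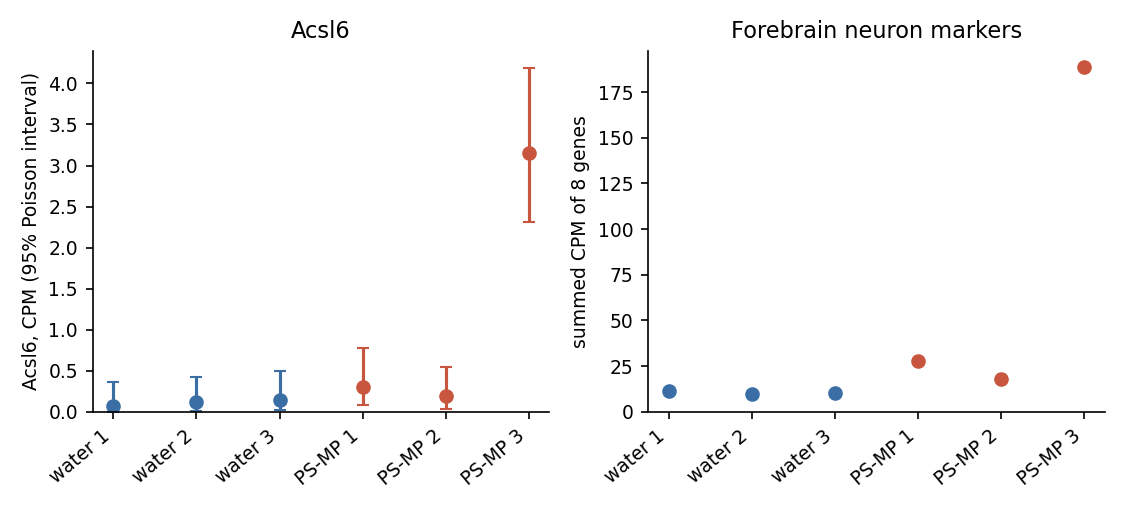
Left, Acsl6 in CPM per library with exact 95% Poisson intervals; right, summed CPM of 8 forebrain neuron markers in the same libraries, water in blue and PS-MP in red. PS-MP replicate 3 is highest in both, at 3.15 CPM of Acsl6 and 188.7 CPM of the markers.

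Among the transport proteins, 4 of 4 were tested and 0 passed, where 0.489% of all tested genes were called. Slc27a2 had 604.2, 581.3 and 619.9 FPKM in water and 550.8, 568.5 and 647.0 FPKM in PS-MP. PS-MP held both the lowest and the highest library, and the log2 fold change was -0.03 (95% interval -0.24 to 0.17, adjusted p = 0.897). Slc27a5, the bile acid activating member, had 278.9, 282.0 and 265.7 FPKM in water and 261.3, 259.7 and 305.4 FPKM in PS-MP. Its means were 275.5 ± 8.63 and 275.5 ± 25.9 FPKM (SD, n = 3 each), with a log2 fold change of -0.004 (95% interval -0.20 to 0.19, adjusted p = 0.99). The ratio of Slc27a2 to Slc27a5 was 2.06 to 2.33 in water and 2.11 to 2.19 in PS-MP. Baat, which completes bile acid conjugation after SLC27A5, averaged 207 ± 10.6 FPKM in the water libraries and 177 ± 7.08 FPKM in the PS-MP libraries (SD, n = 3 each, log2 fold change -0.22, adjusted p = 0.25). Of these 2 genes of bile acid conjugation, Baat and Slc27a5, 0 passed, where 0.489% of all tested genes were called. Both fold changes were negative (median log2 fold change -0.11), against 46.3% of all genes tested. The sign of Slc27a5 was not stable, from -0.08 to 0.04 when 1 library was left out.

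Slc27a4 was the member nearest to the threshold after Acsl1. It encodes a transport protein best known from gut and skin, and it had 8.98, 8.80 and 6.87 FPKM in water and 6.43, 6.81 and 7.09 FPKM in PS-MP. Water replicate 3 lay within the PS-MP range. The log2 fold change was -0.25 (standard error 0.11, 95% interval -0.51 to 0.002, adjusted p = 0.386), and it was -0.37 without water replicate 3. Slc27a1, the transport protein of muscle and fat, had 6.14, 5.03 and 6.83 FPKM in water and 4.55, 5.67 and 7.48 FPKM in PS-MP. PS-MP again held both extremes, and the log2 fold change of -0.04 (95% interval -0.44 to 0.37, adjusted p = 0.946) became -0.21 without PS-MP replicate 3 and 0.12 without PS-MP replicate 1.

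Acsm1 differs from the others by its substrate: it is a mitochondrial enzyme that activates medium-chain acids, not long-chain ones. It had 100.8, 84.5 and 90.2 FPKM in water and 94.7, 86.4 and 104.2 FPKM in PS-MP. The groups were interleaved, with a log2 fold change of 0.05 (95% interval -0.17 to 0.27, adjusted p = 0.863).

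PS-MP replicate 3 stood apart in several members. It was the highest of all 6 libraries for Acsl6, Slc27a1, Slc27a2, Slc27a5 and Acsm1. For Acsl4, Acsl5 and Slc27a4 it was the highest PS-MP library, and for Acsl1 and Acsl3 it lay between the other PS-MP libraries. It had the lowest summed hepatocyte markers (86370 CPM) as well as the most forebrain transcripts. Without it the log2 fold changes were -0.50 for Acsl1, -0.10 for Slc27a2, -0.08 for Slc27a5 and -0.02 for Acsm1. Over the 9 tested members the median log2 fold change was -0.04 with all libraries and -0.10 without this one. It was 0.01 without PS-MP replicate 1. The median over all genes tested was 0.01 with all 6 libraries. Of the 9, 7 had a negative fold change (77.8%), against 46.3% of all genes tested, and without PS-MP replicate 1 the count was 4 of 9. Of the 7 negative with all libraries, only Acsl1, Slc27a4 and Acsl5 were lower by more than 0.1.

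**Figure D4:**
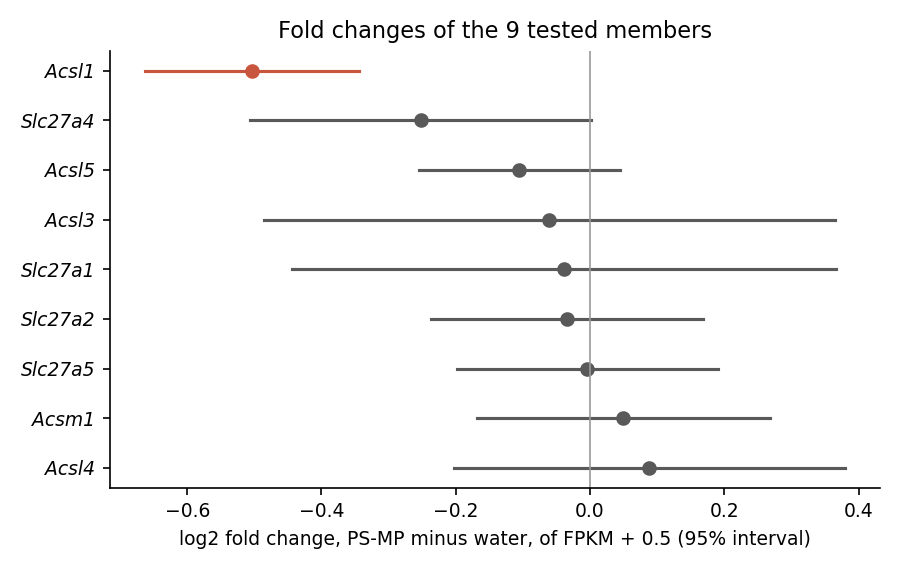
Log2 fold change (PS-MP minus water, of FPKM + 0.5) of the 9 tested members with 95% intervals from the limma fit; red marks an adjusted p under 0.05. The interval of Acsl1, -0.66 to -0.34, lies wholly under 0, and the other 8 include 0.

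Other acyl-CoA synthetases of liver showed no call. From a list of 16, 14 were found by symbol and 9 were tested. Of these, 0 passed the limma test, where 0.489% of all tested genes were called. Unadjusted p-values were under 0.05 for 2 of them, against 13.1% of all genes tested, and 3 were negative and 6 positive, where 46.3% of all genes tested were negative. The list's median log2 fold change was 0.07. Acsf2, a medium-chain synthetase, had 74.7 ± 4.51 and 78.5 ± 1.56 FPKM (SD, n = 3 each). Aacs, which activates acetoacetate for lipid synthesis, had 1.23, 1.36 and 1.20 FPKM in water and 2.30, 2.13 and 4.45 FPKM in PS-MP (log2 fold change 0.91, adjusted p = 0.153). Its groups did not overlap, as was so for 2 of the 9 tested genes of this list and for 19.2% of all tested genes. PS-MP replicate 3 was the highest for Aacs. Acsm5, a relative of Acsm1, had a log2 fold change of 0.20 (adjusted p = 0.301). The transport proteins outside the 10 were scarce: Slc27a3 had 2 to 13 reads per library and a log2 fold change of -0.30 (adjusted p = 0.428), and Slc27a6 had 2 to 12 reads and was not tested. Acsf2, Slc27a3 and Slc27a6 were singled out after their values were seen.

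Proteins that bring fatty acids in and bind them also gave no call, with 0 of 13 passing, against 0.489% of all genes tested. At an unadjusted limma p under 0.05 there were 0, against 13.1% of all genes tested. The median log2 fold change was -0.12, with 10 negative, against 46.3% of all genes tested. Dbi, the acyl-CoA binding protein, had 180.1, 177.0 and 162.6 FPKM in water and 149.2, 168.8 and 125.4 FPKM in PS-MP (log2 fold change -0.24, adjusted p = 0.417, and -0.12 without PS-MP replicate 3). Acbd6, a related binding protein, had -0.17 (adjusted p = 0.486).

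Acyl-CoA made by these enzymes is either moved into mitochondria and peroxisomes or esterified. Of 9 tested genes of entry into the organelles, 0 passed, against 0.489% of all genes tested. An unadjusted limma p under 0.05 was found for 3, against 13.1% of all genes tested. The median log2 fold change was -0.10 and 7 were negative, against 46.3% of all genes tested. Crat, the carnitine acyltransferase of short chains, had 25.2, 28.1 and 23.9 FPKM in water and 18.3, 18.6 and 14.4 FPKM in PS-MP (log2 fold change -0.58, adjusted p = 0.0962, and 0.0388 with limma-voom). Leaving out any 1 library gave Crat a limma adjusted p of 0.116 to 0.27. Cpt2, which hands acyl-CoA to the mitochondrial matrix, had a log2 fold change of -0.30 (adjusted p = 0.22). Cpt1a, the gate of mitochondrial entry that takes the product of ACSL1, averaged 122 ± 2.68 FPKM in the water libraries and 122 ± 7.501 FPKM in the PS-MP libraries (SD, n = 3 each, log2 fold change -0.01, 95% interval -0.16 to 0.15), and it was chosen after its values were seen.

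Of 19 tested genes of esterification, 0 passed, against 0.489% of all genes tested. An unadjusted limma p under 0.05 was found for 4, against 13.1% of all genes tested. The median log2 fold change was 0.07 and 6 were negative, against 46.3% of all genes tested. Lpin1, a phosphatidate phosphatase of triglyceride synthesis, had 26.9, 38.1 and 31.2 FPKM in water and 48.2, 55.0 and 61.6 FPKM in PS-MP. The log2 fold change was 0.77, with an adjusted p of 0.0772, and of 0.0256 with limma-voom. Leaving out any 1 library gave Lpin1 a limma adjusted p of 0.0551 to 0.24. Agpat2, which makes phosphatidic acid, had -0.29 (adjusted p = 0.199). Of 12 tested thioesterases, which undo the work of the synthetases, 0 passed, against 0.489% of all genes tested. Of these 12, 2 had an unadjusted limma p under 0.05, near the 13.1% of all genes tested. The fold change was negative for 8, against 46.3% (median -0.11). Acot2 and Acot1, near-identical neighbours between which reads could be split, had log2 fold changes of -1.30 and -0.97 (adjusted p = 0.12 and 0.193). Acot2 had an adjusted p of 0.0491 with limma-voom and of 0.0447 with a replicate block in limma. Leaving out any 1 library gave Acot2 a limma adjusted p of 0.116 to 0.369.

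**Figure D5:**
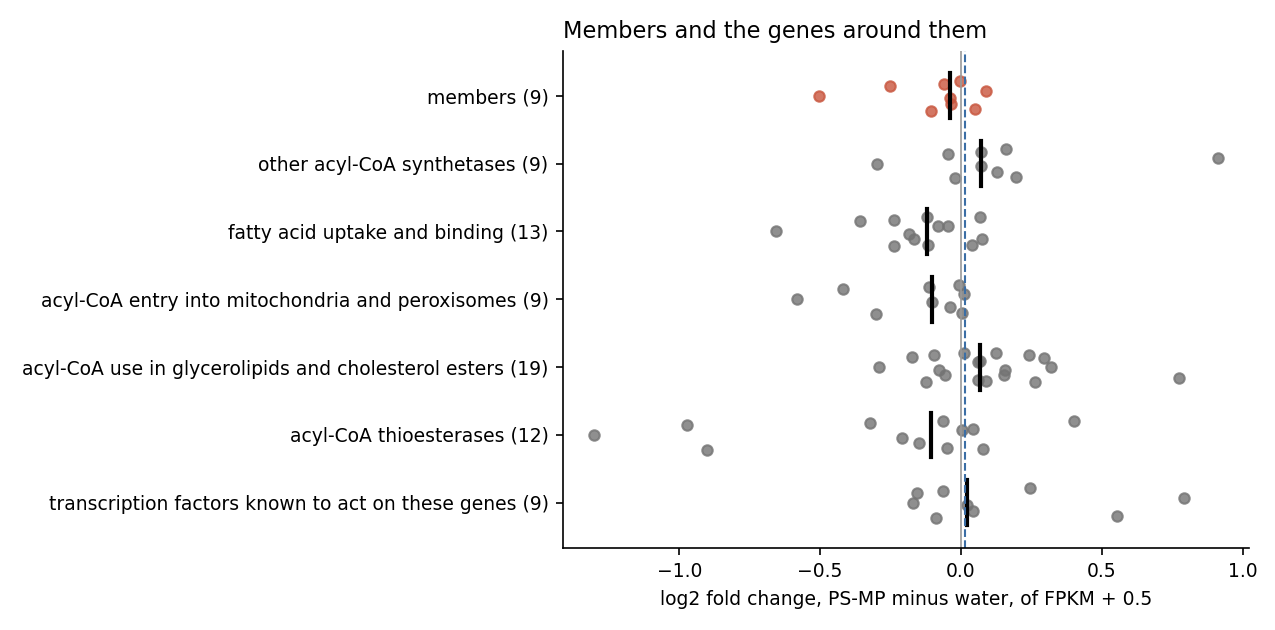
Log2 fold change (PS-MP minus water, of FPKM + 0.5) of each tested gene in 7 lists, with the number of genes in brackets; black bars are list medians and the dashed line is the median of all 13299 genes tested (0.01). Acsl1 is the leftmost of the 9 members at -0.50, and list medians lie between -0.12 and 0.07.

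The transcription factors known to act on these genes gave 0 calls of 9, against 0.489% of all genes tested. An unadjusted limma p under 0.05 was found for 4 (13.1% of all genes tested), and the median log2 fold change was 0.02. Ppara, whose protein drives Acsl1 in fasting, was at 51.4, 43.5 and 46.7 FPKM in water and 51.9, 45.2 and 48.8 FPKM in PS-MP, with overlapping groups; it was named after its values were seen. Ppargc1a, a coactivator of PPARalpha, had a log2 fold change of 0.79 (2.14 to 2.97 FPKM in water, 3.77 to 7.08 in PS-MP, adjusted p = 0.184). Rxra, the partner of PPARalpha on DNA, had 0.24 (adjusted p = 0.22).

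Among the 4832 other tested genes with a mean of at least 5 FPKM, those whose log2 values followed Acsl1 most closely over the 6 libraries were Atf5, Pnpla7 and Irf9 (Pearson r of 0.991, 0.99 and 0.989, n = 6). Atf5, a stress-responsive transcription factor, had 183.2, 177.9 and 167.8 FPKM in water and 113.9, 133.0 and 116.0 FPKM in PS-MP (log2 fold change -0.54, adjusted p = 0.0423). This call was not stable, since 0 genes passed without water replicate 3 and 0 with no low-value rule. In Atf5, as in Acsl1, PS-MP replicate 2 was the highest of its group, a likeness that the choice by r favours. Pnpla7, a lysophospholipase, and Irf9, of interferon signalling, had log2 fold changes of -0.34 and -0.38 (adjusted p = 0.11 and 0.117). The genes closest to Slc27a2, the most abundant transport protein, were Stx17, Enpp5 and Nras (r of 0.988, 0.972 and 0.972), none with a log2 fold change beyond -0.13. With so many genes and 6 points that share a group difference, these values of r are descriptions only.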

How the data were processed

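Liver RNA was sequenced from 3 water and 3 PS-MP libraries, grouped by their titles. Each deposited file lists FPKM values by gene, computed by the authors. Tools named in the submitters' processing notes are CASAVA, FastQC, MultiQC, Trimmomatic 0.38, HISAT2 2.1.0, featureCounts 1.6.0 and DESeq2 1.22.1. The notes name GRCh38, whereas all 55536 identifiers match the mouse annotation GENCODE M21 (GRCm38), which gave symbols, coordinates and exon lengths. The strand setting and the counted unit (reads or pairs) are not given in the sources used here. FPKM times merged exon length gave whole reads within 0.001 for 100% of genes above 0, with totals of 13082210 to 16948343 reads; the total limits the precision of every value.

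Log2(FPKM + 0.5) was fitted with limma-trend (limma 3.58.1, R 4.3.3), group as the only term, with Benjamini-Hochberg adjustment over the 13299 genes with at least 0.66 CPM (10 reads in the median library) in 3 libraries and 15 reads in all; the threshold was 0.05. A fold change on this scale understates low genes. Scripts were tested on simulated data. Alternatives were pseudocounts, low-value rules, median-of-ratios scaling, limma-voom on recovered reads, a replicate block and leaving libraries out. Members and lists were chosen with earlier results of these data known; named list genes are those that passed, or otherwise the 2 with the smallest p per list, and likeness was searched for the most abundant Acsl and Slc27a gene. Promoter sequences are RefSeq's; no protein sequences were used here.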

Additional observations from a re-analysis of the deposited data

Results flagged for a closer look

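Acsl6 had 47 reads in PS-MP replicate 3, a gene outside the comparison because of its low values, where the counting interval lay above those of all 3 water libraries (1, 2 and 2 reads). Cpt1c, the brain form of carnitine palmitoyltransferase, had 17 reads in PS-MP replicate 3 against 1, 2 and 3 reads in water and was likewise too low to be tested. Both stood above water in the library with the most forebrain transcripts (188.7 summed CPM against at most 11.19 in water), and the part of those transcripts was not tested.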

How the results depend on the processing

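Of 308 refitted log2 fold changes of single genes (22 genes, 14 refits), 283 kept their direction and side of the threshold. Most of these are genes without a call that stayed so. Acsl1, the only one called in the main fit, kept its call in 5 of the 14 refits. The number of changed genes, 65, was 133 with limma-voom on recovered reads, 23 with a replicate block, 0 with no low-value rule and 0 with the libraries holding Ucp1 reads left out, and ranged from 0 to 36 without 1 library (limma unadjusted p under 0.05 for 2064 genes with no low-value rule, 1037 without the Ucp1 libraries and 1641 without water replicate 3). The number of changed members, 1, was 0 with the replicate block, with no low-value rule, with the Ucp1 libraries left out and without any 1 library (0 to 0), with 1 to 3 members at an unadjusted limma p under 0.05 in these fits. Negative members numbered 4 to 8 and the members' median ran from -0.1043 to 0.0116 when 1 library was left out.

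Acsl1 kept its direction in every refit; with the replicate block its adjusted p was 0.093, and the cause of the lost calls was not tested. Signs that turned belong to genes near 0: with the Ucp1 libraries left out Acsl3 had 0.37 and Slc27a1 0.0137, and without 1 library Acsl3 ran from -0.26 to 0.12, Slc27a1 from -0.21 to 0.12, Slc27a2 from -0.1043 to 0.0116, Slc27a5 from -0.0804 to 0.0363 and Acsm1 from -0.0184 to 0.118. Crat, Lpin1 and Acot2 passed with limma-voom, and Acot2 with the replicate block (adjusted p = 0.0447). Their limma adjusted p stayed above 0.05 in the main fit and when any 1 library was left out. No pairing by replicate number was seen in the values: deviations of same-numbered libraries correlated at -0.036, 0.047 and -0.01. Not every library correlated best with its own number. With 3 libraries per group such values cannot exclude a pairing. Depth limits Acsl6 and Acsl3 most.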
